A study of Homo sapiens with 6 samples.

Results

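The heterogeneous nuclear ribonucleoproteins (hnRNPs) and the serine- and arginine-rich (SR) proteins are the 2 large families of RNA-binding proteins that steer splice site choice. Their genes were taken from the gene table by the form of the symbol, HNRNP or SRSF with a short member code, leaving out entries described as pseudogenes. This gave 37 of 50868 genes, 25 of them hnRNP genes and 12 SR genes, and left out 29 pseudogene entries of that form. Symbols of another form, such as HNRNPA1P7 or the read-through HNRNPUL2-BSCL2, were not matched. RNA sequencing was performed on CUTLL1, a human leukaemia line of the T-cell acute lymphoblastic kind that is kept in culture. Of 6 cultures, 3 carried a lentiviral short hairpin RNA against AURKB, the gene of the mitotic kinase Aurora B (shAURKB), and 3 a control hairpin named for GFP (shGFP). All 6 were infected, selected with puromycin and taken for total RNA at 48 h, and the labels name 1 hairpin per arm without its sequence. The replicates are described as biological, in 1 cell line.

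SR proteins carry RNA-recognition motifs and a domain of arginine-serine repeats. They bind exonic enhancers, recruit the U1 snRNP and U2AF to nearby splice sites, and are moved and activated by the SRPK and CLK kinases that phosphorylate the repeats. hnRNPs coat nascent transcripts and often act against exon inclusion. Several members of both families control their own mRNA through exons that trigger nonsense-mediated decay, and MYC is known to raise the transcription of some hnRNP and SR genes in tumour cells.

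Library totals ran from 10154187 to 11922979 counts. AURKB, the target of the hairpin, was at 100.4, 96.95 and 107 CPM (counts scaled to a common library size) in the 3 shGFP libraries and at 39.75, 43.88 and 36.03 CPM in the 3 shAURKB libraries, a log2 fold change of -1.35 ± 0.08 (SE; edgeR adjusted p = 2.54e-04). Markers of T cells summed to between 2133 and 2352 CPM over the 6 libraries. Single markers of the list differed from the sum. RAG1, the recombinase of immature T cells, had 603, 498 and 651 reads in the shGFP libraries and 174, 144 and 171 in the shAURKB libraries. CD1E had 2793, 2903 and 3380 against 2356, 2047 and 2077 reads, and TAL1 had 139, 148 and 163 against 120, 104 and 117. The reads of the other T-cell markers overlapped between the arms. Among these, CD3G had 1027 reads in shGFP replicate 2 and 2323 to 2661 in every other library, and PTCRA had between 0 and 12 reads. The part of these markers in the results was not tested. The summed level of fibroblast and epithelial markers was 27.2 CPM in shGFP replicate 1 and at most 1.29 CPM elsewhere. The part of these reads was not tested either. Without shGFP replicate 1, 5 hnRNP genes were called higher in place of 7 and 0 lower in place of 2, and 2 SR genes lower as before. Of the other splicing genes described further on, 38 were then called higher in place of 52. Losses of this size were not particular to shGFP replicate 1. Leaving out any other single library gave 5 to 6 hnRNP genes higher, 0 to 1 lower and 32 to 41 other splicing genes higher.

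Among hnRNP genes, 7 rose, 2 fell and 12 did not pass the test with AURKB shRNA. The test was edgeR's quasi-likelihood test, with a Benjamini-Hochberg adjusted p below 0.05 over all 14818 tested genes. Among SR genes, 0 rose, 2 fell and 8 did not pass. At an unadjusted p below 0.05, 1 SR gene was higher in edgeR and 0 in DESeq2, and DESeq2 and limma-voom also called 0 higher. Of all tested genes 12.5% were called higher and 10.9% lower. Among the 4832 genes with a mean of at least 50 CPM, a level that all 31 tested members exceeded, 26% were called higher and 10.9% lower. The share of hnRNP genes called in either direction was 42.9%, and that of SR genes 20%, against 23.3% of all genes. Genes of at least 50 CPM exceeded that 23.3% by their higher calls alone, so the share of all genes is a low mark for these members. The median log2 fold change was 0.10 over hnRNP genes and -0.03 over SR genes, against 0.00 over all tested genes and 0.08 over those of at least 50 CPM. Under every alternative scaling or test the hnRNP median was above 0 and the SR median below it. No change in a called member was large: the called values lay between -0.28 and 0.26 on the log2 scale.

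**Figure D1:**
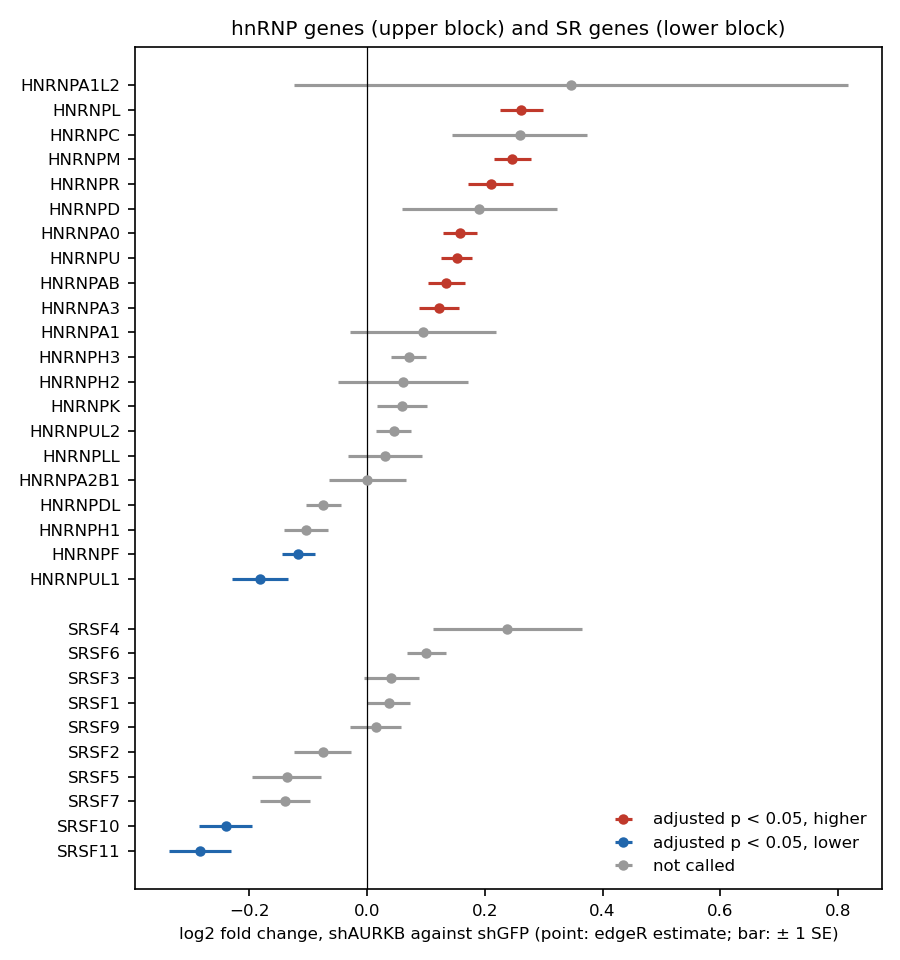
The log2 fold change of shAURKB against shGFP (horizontal axis) is shown for the 21 tested hnRNP genes and the 10 tested SR genes, with a bar of 1 SE on each side; red and blue points passed the edgeR test as higher and lower. The 7 red points are all hnRNP genes, and HNRNPA1L2, HNRNPC, HNRNPD, HNRNPA1, HNRNPH2 and SRSF4 have the widest bars.

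HNRNPM, a splicing silencer and enhancer protein that binds GU-rich RNA, rose (ENSG00000099783, GRCh38 chromosome 19, 8444767 to 8489114, plus strand). Its level was 355.5, 360.4 and 348.8 CPM in the shGFP libraries and 428.5, 419.1 and 415.9 CPM in the shAURKB libraries. The lowest shAURKB library lay above the highest control. The log2 fold change was 0.25 ± 0.03 (SE, edgeR adjusted p = 2.49e-03), or 18.7% above the control. HNRNPM and ELAVL1 overlap at their 5′ ends on opposite strands, and without a stated strand setting reads of that stretch cannot be told apart. The same limit holds for HNRNPUL1 and HNRNPAB, described below. HNRNPUL1 overlaps TGFB1 (1000 to 1137 reads) and HNRNPAB overlaps PHYKPL (495 to 677 reads), each on the opposite strand.

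HNRNPL, which binds CA repeats and is known for repressing variable exons of the T-cell gene PTPRC, also rose (ENSG00000104824, GRCh38 chromosome 19, 38836388 to 38852347, minus strand). It was at 383.7, 389.6 and 413.7 CPM with control shRNA and at 469.5, 479.2 and 475.2 CPM with AURKB shRNA. All 3 shAURKB libraries were above the 3 controls, and the log2 fold change was 0.26 ± 0.04 (SE, edgeR adjusted p = 4.06e-03). HNRNPLL, its relative induced in activated T cells, was at 88.62, 91.33 and 87.5 CPM against 84.14, 96.53 and 92.64 CPM. The HNRNPLL groups overlapped, at a log2 fold change of 0.03 with a 95% interval of -0.12 to 0.18 (edgeR adjusted p = 0.759).

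HNRNPU, a nuclear scaffold protein also called SAF-A, was nearly level across the controls. It was at 1204, 1205 and 1205 CPM in the shGFP libraries and at 1336, 1367 and 1314 CPM in the shAURKB libraries. HNRNPU rose by 0.15 ± 0.03 on the log2 scale (SE, edgeR adjusted p = 7.98e-03). Its relative HNRNPUL1 was at 660.7, 623.6 and 592.6 CPM with control shRNA and at 570.5, 550.7 and 533.4 CPM with AURKB shRNA. The groups did not overlap and HNRNPUL1 fell by 0.18 ± 0.05 (SE, edgeR adjusted p = 0.0343), a call lost without shGFP replicate 1 (-0.14, adjusted p = 0.0845) and without any other library but shGFP replicate 3. HNRNPUL2 missed the threshold with a log2 fold change of 0.05 ± 0.03 (edgeR adjusted p = 0.316). With upper-quartile scaling HNRNPUL2 was at -0.0087.

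HNRNPR, which takes part in mRNA transport and splicing, was at 440.2, 476.3 and 459.1 CPM in the shGFP libraries and at 538, 536 and 517.4 CPM in the shAURKB libraries. Each shAURKB library was above each control, and HNRNPR rose by 0.21 ± 0.04 (SE, edgeR adjusted p = 9.99e-03). SYNCRIP, also called hnRNP Q and the closest relative of HNRNPR, missed the threshold at 0.14 ± 0.05 (edgeR adjusted p = 0.0694).

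The A/B group, to which the abundant core particle proteins belong, had risers of small size. HNRNPA0, a binder of AU-rich elements, was at 407.7, 399.7 and 409.7 CPM with control shRNA and at 445.3, 457.7 and 454.7 CPM with AURKB shRNA. The groups were apart, and HNRNPA0 rose by 0.16 ± 0.03 (SE, edgeR adjusted p = 0.0106). HNRNPAB was at 304.3, 303.1 and 294.4 CPM against 324.8, 334.2 and 331.2 CPM and rose by 0.13 ± 0.03 (edgeR adjusted p = 0.0247). Leaving out any single library except shAURKB replicate 1 ended the HNRNPAB call (adjusted p up to 0.0734). HNRNPA2B1, a reader of RNA sorting signals, was at 1505, 1529 and 1436 CPM against 1597, 1537 and 1338 CPM. Its groups overlapped, and the log2 fold change of 0.00 had a 95% interval of -0.15 to 0.16 (edgeR adjusted p = 0.996).

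The F/H group, which binds runs of G, held small values of both signs. HNRNPF was at 551, 537.4 and 540.5 CPM with control shRNA and at 504.7, 498.6 and 499.1 CPM with AURKB shRNA. The groups did not overlap, and HNRNPF fell by 0.12 ± 0.03 (SE, edgeR adjusted p = 0.0246). Leaving out any 1 of the 6 libraries ended that call, with an adjusted p of 0.055 to 0.0792. HNRNPH1 was below every control in each shAURKB library (582.3, 550.9 and 557.5 against 606.8, 623.7 and 586.1 CPM) but did not pass, at -0.10 ± 0.04 (edgeR adjusted p = 0.0872), except with upper-quartile scaling (-0.16, adjusted p = 0.0293). HNRNPH3 was at 310.1, 306.3 and 308.5 CPM against 328.3, 319.3 and 323.9 CPM, at 0.07 ± 0.03 (edgeR adjusted p = 0.135).

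HNRNPH2 lies on chromosome X beside RPL36A, and a read-through gene that joins both is counted separately. The HNRNPH2 level was 77.2, 99.19 and 104.9 CPM against 96.05, 97.41 and 100.2 CPM, so shGFP replicate 1 was the low library. In that library the read-through gene RPL36A-HNRNPH2 held 148 reads, against 43 and 41 in the other controls and 44, 47 and 39 in the shAURKB libraries. The log2 fold change of HNRNPH2 was 0.06 ± 0.11 (edgeR adjusted p = 0.727) and -0.06 without shGFP replicate 1.

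HNRNPC, the tetramer that measures RNA length and shields cryptic exons, showed 1 control apart from the other two. It was at 475.7, 664.9 and 511.9 CPM in the shGFP libraries and at 673.8, 653.6 and 650 CPM in the shAURKB libraries. Only shGFP replicate 2 reached the level of the shAURKB libraries. The log2 fold change was 0.26 ± 0.12 (SE, edgeR adjusted p = 0.152), and without that library it was 0.42 (adjusted p = 5.05e-03). HNRNPK and HNRNPD did not pass either: HNRNPK was at 0.06 ± 0.04 (edgeR adjusted p = 0.352), and HNRNPD, which binds AU-rich mRNA, at 0.19 ± 0.13 (adjusted p = 0.34). HNRNPD spread from 432.1 to 627.2 CPM within the shAURKB arm. HNRNPDL was at 559.9, 562.2 and 562.8 CPM against 546.5, 528.7 and 525.5 CPM, apart between the arms but not called, at -0.07 ± 0.03 (edgeR adjusted p = 0.112). HNRNPDL passed as lower in 4 of 17 alternatives, upper-quartile scaling (-0.13, adjusted p = 0.0252) and the FPKM fits.

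**Figure D2:**
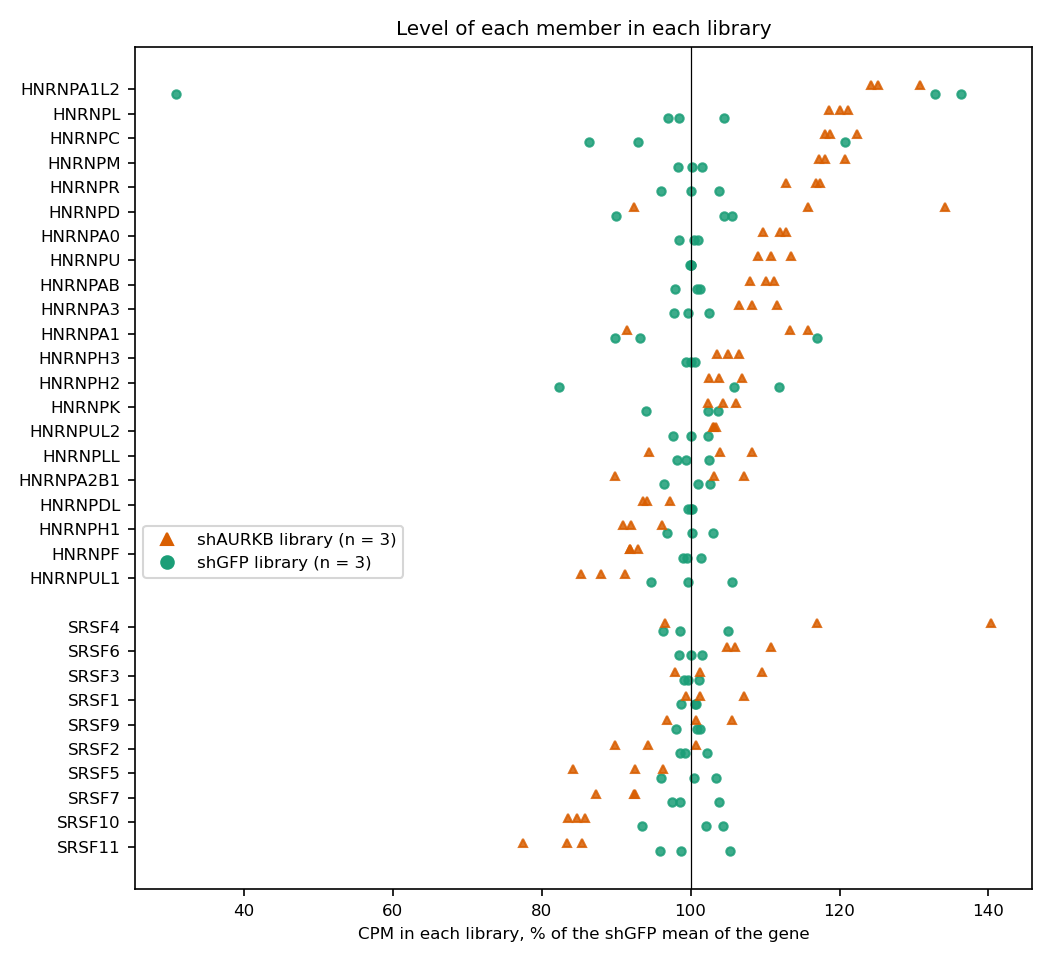
Each point is 1 library, placed by its CPM as a percent of the gene's mean over the 3 shGFP libraries (horizontal axis), for the 31 tested members; circles are shGFP and triangles shAURKB. The triangles of HNRNPL, HNRNPM and HNRNPR lie to the right of their circles and those of SRSF10 and SRSF11 to the left, and 1 shGFP library of HNRNPA1L2 lies far to the left.

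HNRNPA1, the best studied hnRNP and an antagonist of SRSF1, has many processed copies in the genome, and reads were assigned to these as well as to HNRNPA1. Its own entry (ENSG00000135486, GRCh38 chromosome 12, 54280193 to 54287088, plus strand) was at 460, 476.7 and 598.3 CPM with control shRNA and at 592.3, 579.8 and 468.1 CPM with AURKB shRNA. In each arm 1 library lay with the other arm, and the log2 fold change of 0.10 ± 0.12 did not pass (edgeR adjusted p = 0.621). The table names 77 genes of the HNRNPA1 family, 49 of them with reads, and HNRNPA1 itself held between 17.4% and 22.7% of the family's reads. HNRNPA1P7, on chromosome 18 (32412214 to 32413176), had more reads than HNRNPA1 in every library: 11774, 11337 and 12565 in the controls and 12227, 10896 and 11045 with AURKB shRNA. HNRNPA1P48, on chromosome 16 (51645756 to 51647132) and typed as protein coding by the annotation despite its name, followed with 9848, 9638 and 10933 against 10456, 8879 and 9634 reads. Whether these copies are themselves transcribed cannot be told apart from reads of HNRNPA1 placed on them, since the handling of reads that match several places is not given in the sources used here.

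The copies are close to HNRNPA1 in sequence. In GENCODE release 29 transcripts, HNRNPA1P7 was 99.1% identical to HNRNPA1 over 963 bases with 9 mismatches, HNRNPA1P48 99.2% over 1361 bases and HNRNPA1L2 98.4% over 1350 bases. Within those 963 bases of HNRNPA1, 64% of all stretches of 100 bases were identical in HNRNPA1P7, 45.4% in HNRNPA1P48 and 11.3% in HNRNPA1L2. Closeness and reads did not go together in every copy. HNRNPA1P10, 99.5% identical over 963 bases and with 47.5% of stretches identical, held only 557 to 736 reads per library. The reason was not tested. A stretch of 90 bases, from base 617 to base 706 of the 963, encodes part of the glycine-rich domain and is shown because it tells 2 of the copies from the gene. Capitals mark the 6 positions where any of the 4 sequences differs, and HNRNPA1P48 has 0 differences from HNRNPA1 here.
HNRNPA1: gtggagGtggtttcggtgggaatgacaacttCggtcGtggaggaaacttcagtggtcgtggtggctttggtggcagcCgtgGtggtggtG
HNRNPA1P7: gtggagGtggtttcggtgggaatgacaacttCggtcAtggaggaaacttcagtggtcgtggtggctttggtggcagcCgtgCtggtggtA
HNRNPA1P48: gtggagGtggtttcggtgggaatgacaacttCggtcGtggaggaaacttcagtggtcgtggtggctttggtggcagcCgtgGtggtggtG
HNRNPA1L2: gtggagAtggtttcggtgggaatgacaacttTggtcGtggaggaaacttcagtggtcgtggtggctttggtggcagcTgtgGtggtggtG

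When the reads of the whole HNRNPA1 family were added, the spread between control libraries was smaller. The sum was 2643, 2658 and 2639 CPM in the shGFP libraries and 2716, 2651 and 2566 CPM in the shAURKB libraries, with means of 2647 ± 9.97 and 2644 ± 75.6 (SD, n = 3 each). The groups overlapped, and the log2 fold change of the sum was 0.00 ± 0.03 (edgeR adjusted p = 0.98, in a test chosen after seeing the data). HNRNPA1L2, a copy that counts as a gene of its own, was at 64.84, 63.18 and 14.71 CPM against 59.54, 62.21 and 59.07 CPM. Its shGFP replicate 3, with 178 reads where the other libraries had 623 to 687, is also the control with the highest HNRNPA1 level. Its log2 fold change was 0.35 ± 0.47 (edgeR adjusted p = 0.637) and -0.08 without that library.

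**Figure D3:**
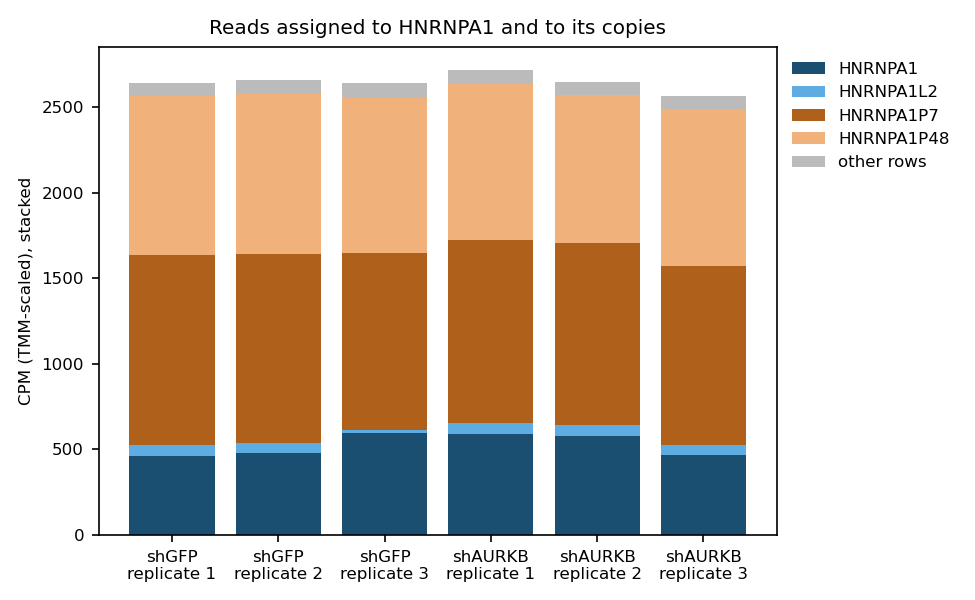
Stacked bars give the CPM assigned to HNRNPA1, HNRNPA1L2, HNRNPA1P7, HNRNPA1P48 and the other entries of the family in each of the 6 libraries (vertical axis, linear from 0). The full bars lie between 2566 and 2716 CPM, and HNRNPA1P7 and HNRNPA1P48 together hold the larger part of each.

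HNRNPA3, a relative of HNRNPA2B1 that binds its RNA sorting signals, has copies with assigned reads too, and HNRNPA3 and its copy HNRNPA3P6 both rose. HNRNPA3 was at 439.5, 431.4 and 452.1 CPM in the controls and at 492.2, 469.9 and 477.6 CPM with AURKB shRNA, all above the controls. HNRNPA3 rose by 0.12 ± 0.03 (SE, edgeR adjusted p = 0.0406), and leaving out any 1 library ended that call (adjusted p = 0.0512 to 0.11). HNRNPA3 held 52% to 55.2% of its family's reads. The copy HNRNPA3P6 (99.7% identical over 624 bases, 62% of the copy) rose by 0.20 ± 0.04 (edgeR adjusted p = 0.0164). As with HNRNPA1, transcription of the copy cannot be told apart from reads of HNRNPA3 placed on it. The sum over the HNRNPA3 family was 806.9, 815.4 and 818.6 CPM against 946.5, 893.4 and 888.7 CPM, a log2 fold change of 0.16 ± 0.03 (edgeR adjusted p = 0.0149). For HNRNPC, whose own entry held 81.6% to 86.7% of the family's reads, the family sum missed the threshold at 0.21 ± 0.10 (edgeR adjusted p = 0.17). HNRNPL held 95% to 95.6% of its family's reads and HNRNPR 99.5% to 99.8%.

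Among SR genes, SRSF11, also known as p54 and bound by U2AF, fell (ENSG00000116754, GRCh38 chromosome 1, 70205682 to 70253052, plus strand). Its level was 314.5, 345.6 and 324.1 CPM with control shRNA and 280.5, 273.8 and 254.4 CPM with AURKB shRNA. All 3 shAURKB libraries were below the 3 controls, and the log2 fold change was -0.28 ± 0.05 (SE, edgeR adjusted p = 0.0104).

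SRSF10, which becomes a splicing repressor when dephosphorylated in mitosis or heat shock, fell as well (ENSG00000188529, GRCh38 chromosome 1, 23964804 to 23980927, minus strand). It was at 488.8, 533.7 and 545.1 CPM in the shGFP libraries and at 436.6, 442.7 and 448.2 CPM in the shAURKB libraries. The arms did not overlap, and SRSF10 fell by 0.24 ± 0.05 (SE, edgeR adjusted p = 0.0111). HNRNPM, HNRNPL, SRSF10 and SRSF11 were the 4 members called in all 17 alternative analyses. The calls of HNRNPU and HNRNPA0 were lost in limma-trend fits to FPKM (adjusted p up to 0.0821 and 0.0635), and that of HNRNPR in the FPKM fit without a filter (adjusted p = 0.0684). Those of HNRNPAB and HNRNPA3 were lost with upper-quartile scaling (adjusted p = 0.119 and 0.196) and in DESeq2 (0.0769 and 0.12), and that of HNRNPF in DESeq2 (0.0963).

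The remaining SR genes did not pass. SRSF7, an adaptor of mRNA export, was at 266.5, 263.5 and 280.8 CPM against 236.1, 250.1 and 249.9 CPM, below every control, at -0.14 ± 0.04 (edgeR adjusted p = 0.0535). SRSF7 passed as lower in 5 of 17 alternatives, among them upper-quartile scaling (-0.19, adjusted p = 0.0161). SRSF6 was at 501.9, 517.9 and 510.6 CPM against 540.8, 535.1 and 565.2 CPM, above every control, at 0.10 ± 0.03 (edgeR adjusted p = 0.0696). SRSF4, its close relative, spread from 141.8 to 206.2 CPM within the shAURKB arm, at 0.24 ± 0.13 (edgeR adjusted p = 0.218), and passed when shAURKB replicate 1 was left out (0.37, adjusted p = 0.0394).

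SRSF1, the founding SR protein and a proto-oncogene, was at 574.3, 584.8 and 585.6 CPM against 589.2, 623.2 and 577.9 CPM. Its groups overlapped, and the log2 fold change of 0.04 had a 95% interval of -0.05 to 0.12 (edgeR adjusted p = 0.502). SRSF3 was at 0.04 (adjusted p = 0.561) and SRSF9 at 0.01 (adjusted p = 0.836), and the signs of SRSF1, SRSF3 and SRSF9 turned with upper-quartile scaling. SRSF2, mutated in myeloid neoplasms, was at -0.08 ± 0.05 (adjusted p = 0.309) and SRSF5 at -0.14 ± 0.06 (adjusted p = 0.14). The SRSF2 locus overlaps MFSD11 on the opposite strand, which held 3933 to 4676 reads.

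Across both families, 10 members lay above all 3 controls in every shAURKB library, 7 lay below all of them and 14 overlapped. The groups did not overlap in 42.6% of all tested genes, 21.7% higher and 20.9% lower. Summed CPM of the hnRNP genes was 10729, 11016 and 10844 in the controls and 11579, 11628 and 11120 with AURKB shRNA, all 3 above the controls. Summed CPM of the SR genes was 3299.6, 3393.5 and 3414.2 against 3175.1, 3291.1 and 3333.4, and these overlapped. As a share of all reads, the hnRNP genes took 1.09% to 1.12% of the control libraries and 1.09% to 1.14% of the shAURKB libraries, which overlapped. The SR genes took 0.336%, 0.344% and 0.347% of the control libraries and 0.311%, 0.323% and 0.326% of the shAURKB libraries, all 3 below the controls. For both families, whether the arms overlapped thus differed between CPM, which carry the TMM factors, and shares of all reads.

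The 6 members left untested had almost no reads. HNRNPCL1 had 0 to 2 reads per library and SRSF8 had 1 read in all, in shGFP replicate 1. HNRNPCL2, HNRNPCL3, HNRNPCL4 and SRSF12 had 0 reads in all 6 libraries, which allows up to 0.248 to 0.293 CPM per library (3 counts, counting error only). HNRNPCL1 to HNRNPCL4 are intronless genes close to HNRNPC, so a read matching several of them could have been placed elsewhere.

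**Figure D4:**
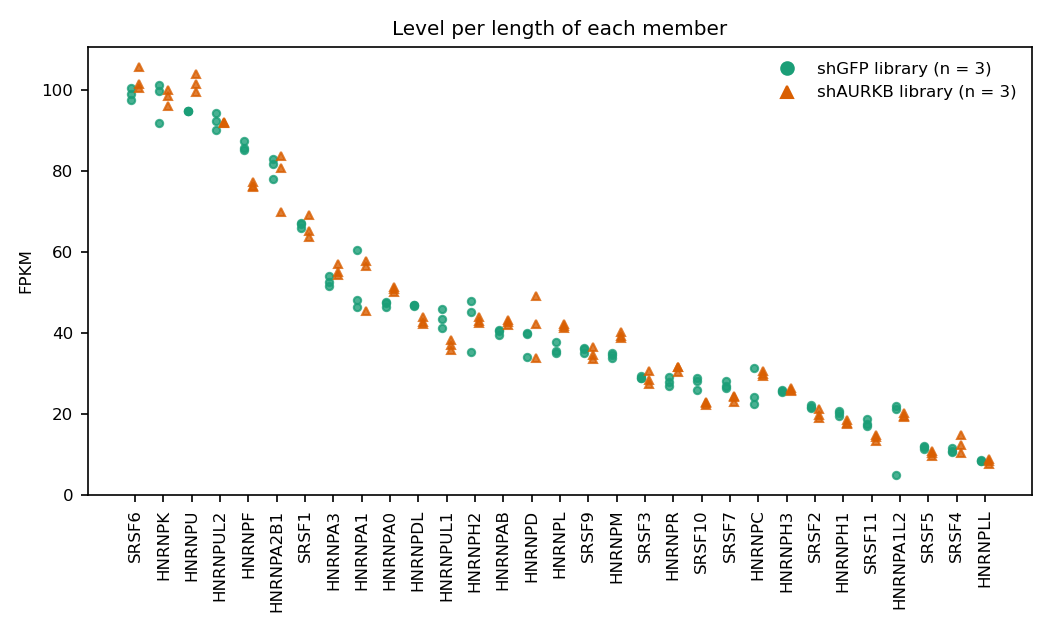
The deposited FPKM of each tested member (vertical axis, linear) is shown in the 3 shGFP libraries (circles) and the 3 shAURKB libraries (triangles), ordered by the shGFP mean. SRSF6, HNRNPK and HNRNPU lead at 99.2, 97.7 and 94.9 FPKM, and HNRNPLL is lowest at 8.44 FPKM.

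Levels between genes were compared per length, as FPKM. In the controls the highest means were 99.2 ± 1.46 FPKM for SRSF6, 97.7 ± 5 FPKM for HNRNPK, 94.9 ± 0.0232 FPKM for HNRNPU and 92.4 ± 2.05 FPKM for HNRNPUL2 (SD, n = 3 each). SRSF6, HNRNPK and HNRNPU lay within the spread of HNRNPK. HNRNPF followed at 86.1 ± 1.22, HNRNPA2B1 at 81 ± 2.64 and SRSF1 at 66.7 ± 0.656 FPKM. The lowest tested members were SRSF5 at 11.7 ± 0.422, SRSF4 at 11 ± 0.511 and HNRNPLL at 8.44 ± 0.183 FPKM. HNRNPA1, one of the most abundant hnRNPs as a protein, stood at 51.7 ± 7.6 FPKM on its own entry.

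Promoter sequence was read for 29 of the 31 tested members, from the RefSeq table on GRCh38.p14 that gives 250 bases before and 50 bases after each gene's start. The search covered 4 motifs on both strands, none of which contains another. The first was CACGTG, the E-box that MYC-MAX and other factors bind. The others were CCGGAAG, the core that ETS factors recognise, CCAAT, read by the trimer NF-Y, and TATAAA, a form of the TATA box found in a minority of promoters. The E-box was present in 7 of 20 hnRNP promoters (35%) and in 0 of 9 SR promoters, against 7.43% of all 27305 promoters and 10.3% of those of tested genes. The 7 were HNRNPM and HNRNPA3, which rose, HNRNPUL1, which fell, and HNRNPD, HNRNPDL, HNRNPH2 and HNRNPH3, which did not pass. The NF-Y motif was present in 13 hnRNP promoters (65%) and 1 SR promoter, against 35.7% of all and 37.4% of those of tested genes. The ETS core was in 5 of the 29 promoters (17.2%), against 10.7% of all and 20.4% of those of tested genes. The TATA box was also in 5 (17.2%), against 12% of all and 5.12% of those of tested genes.

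The 3 called members that hold CACGTG are shown from 150 bases before the start to 30 bases into the transcript, with the motif in capitals. They are shown because the windows of 2 genes that rose and of 1 that fell hold the same letters. The motif begins 71 bases before the start in HNRNPA3 (chr2:177212644-177212823, plus strand), 42 before in HNRNPM (chr19:8444825-8445004, plus strand) and 23 after it in HNRNPUL1 (chr19:41262407-41262586, plus strand). A match describes the letters and is no evidence of binding.
HNRNPA3: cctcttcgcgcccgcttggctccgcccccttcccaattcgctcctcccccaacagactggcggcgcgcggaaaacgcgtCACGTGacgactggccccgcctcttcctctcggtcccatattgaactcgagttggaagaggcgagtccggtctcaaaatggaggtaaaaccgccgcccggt
HNRNPM: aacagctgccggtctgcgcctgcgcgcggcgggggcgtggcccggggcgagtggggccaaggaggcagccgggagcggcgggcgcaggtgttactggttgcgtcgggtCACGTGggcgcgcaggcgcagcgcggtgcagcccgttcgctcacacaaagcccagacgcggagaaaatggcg
HNRNPUL1: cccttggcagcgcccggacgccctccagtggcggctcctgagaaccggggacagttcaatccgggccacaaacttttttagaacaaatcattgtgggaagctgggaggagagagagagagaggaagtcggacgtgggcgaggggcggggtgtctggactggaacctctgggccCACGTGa

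The kinases and importers that act on SR proteins held 10 tested genes, of which 1 rose and 2 fell (median log2 fold change -0.11). SRPK2, a cytoplasmic SR protein kinase, was at 155.6, 169.7 and 162.5 CPM with control shRNA and at 142.1, 136.4 and 135.4 CPM with AURKB shRNA, below every control. SRPK2 fell by 0.24 ± 0.05 (edgeR adjusted p = 0.0138). The nuclear kinase CLK2 fell by 0.23 ± 0.05 (edgeR adjusted p = 0.0145), and neither call held without shAURKB replicate 2 (adjusted p = 0.05 for both). SRPK2 also missed without shAURKB replicate 3 (0.051) and CLK2 without shAURKB replicate 1 (0.0524), each as an adjusted p. SRPK1 was at -0.04 (adjusted p = 0.724, and 0.03 without shGFP replicate 2) and CLK1 at -0.09 (adjusted p = 0.504). TNPO3, the transportin that carries phosphorylated SR proteins into the nucleus, was the gene that rose, by 0.17 ± 0.04 (adjusted p = 0.0154). The TNPO3 call was lost with upper-quartile scaling (0.12, adjusted p = 0.0532) and without shAURKB replicate 3 (adjusted p = 0.0505).

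Of 18 other proteins with arginine-serine repeats, 1 rose and 1 fell (median 0.03). SCAF1 rose by 0.30 ± 0.05 (edgeR adjusted p = 5.58e-03). LUC7L3, a U1-associated protein, was at 209.7, 237.2 and 232.4 CPM against 185.3, 179.4 and 195.1 CPM and fell by 0.28 ± 0.06 (adjusted p = 0.0159). The LUC7L3 call was lost without shGFP replicate 2 or 3 and without shAURKB replicate 1 or 2 (adjusted p = 0.052 to 0.057). The SR-like activator TRA2B was at 0.08 (adjusted p = 0.214). Among 20 further hnRNP-type proteins named outside the HNRNP scheme, 5 rose and 1 fell (median 0.09). KHSRP, a binder of AU-rich and intronic elements, was at 377.1, 370.9 and 363.4 CPM against 469.8, 464.9 and 488.1 CPM and rose by 0.36 ± 0.03 (adjusted p = 9.07e-04). ELAVL1, the mRNA stabiliser HuR, rose by 0.23 ± 0.05 (adjusted p = 0.0161), a call lost without shGFP replicate 3 (0.0532) or shAURKB replicate 3 (adjusted p = 0.0521). PTBP1, also called hnRNP I, was at 534.8, 541.5 and 396.1 CPM against 645.6, 641.5 and 495.7 CPM and missed the threshold, at 0.28 ± 0.15 (adjusted p = 0.217).

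Genes of the splicing machinery itself had more calls than the 3 lists above. Among all genes of at least 50 CPM, 26% were called higher and 10.9% lower. Of 27 Sm, U1 and U2 snRNP proteins, 15 rose and 0 fell (median 0.17). At an unadjusted p below 0.05, 2 of them were lower in edgeR and 1 in DESeq2, and DESeq2 and limma-voom called 0 lower. U2AF2, which reads the polypyrimidine tract, was at 412.5, 400.9 and 401.6 CPM in the controls and at 560.4, 551 and 568.8 CPM with AURKB shRNA. The groups were far apart, and U2AF2 rose by 0.47 ± 0.03 (edgeR adjusted p = 2.76e-04). SF3B5, a small subunit of the branch-site complex, rose by 0.42 ± 0.06 (edgeR adjusted p = 3.34e-03). U2AF1, the partner of U2AF2 at the 3′ splice site, was listed at only 1.04 to 2.89 CPM. Whether reads of U2AF1 were placed elsewhere was not tested, so this is not shown to be its level in the cells.

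Of 32 tri-snRNP and Prp19 complex proteins, 16 rose and 0 fell (median 0.19), with 0 lower at an unadjusted p below 0.05 in edgeR and in DESeq2. PRPF31 and PRPF4, both of the U4/U6 particle, rose by 0.51 ± 0.08 and 0.51 ± 0.05 (edgeR adjusted p = 4.59e-03 and 1.45e-03). Of 22 snRNP assembly factors and arginine methyltransferases, 10 rose and 0 fell (median 0.21), again with 0 lower at an unadjusted p below 0.05 in both tools. PRMT1, the enzyme that asymmetrically methylates many hnRNP proteins, was at 190.6, 201 and 205.2 CPM against 281, 293 and 290.4 CPM and rose by 0.53 ± 0.04 (adjusted p = 5.18e-04). RIOK1, an adaptor of PRMT5, rose by 0.69 ± 0.05 (adjusted p = 5.48e-04). PRMT5, which methylates Sm proteins symmetrically, rose by 0.26 ± 0.05 (adjusted p = 0.0143).

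Of 15 genes of nonsense-mediated decay and the exon junction complex, 4 rose and 1 fell (median 0.04). MAGOH rose by 0.38 ± 0.08 (edgeR adjusted p = 0.0172), a call lost without shGFP replicate 2 or 3 and without shAURKB replicate 1 or 2 (adjusted p = 0.0545 to 0.0587). EIF4A3, the helicase of the same complex as MAGOH, rose by 0.35 ± 0.04 (adjusted p = 1.28e-03). Over all 144 genes of these 7 lists, 52 rose and 5 fell, a called share of 39.6%, with a median of 0.14. Of all tested genes 12.5% were called higher and 10.9% lower. Of those of at least 50 CPM, 26% were called higher and 10.9% lower, with a median of 0.08. Not every listed gene reaches that level. Gene counts do not show isoforms, so neither inclusion of the decay-triggering exons of the hnRNP and SR genes nor any change in splicing was measured here.

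**Figure D5:**
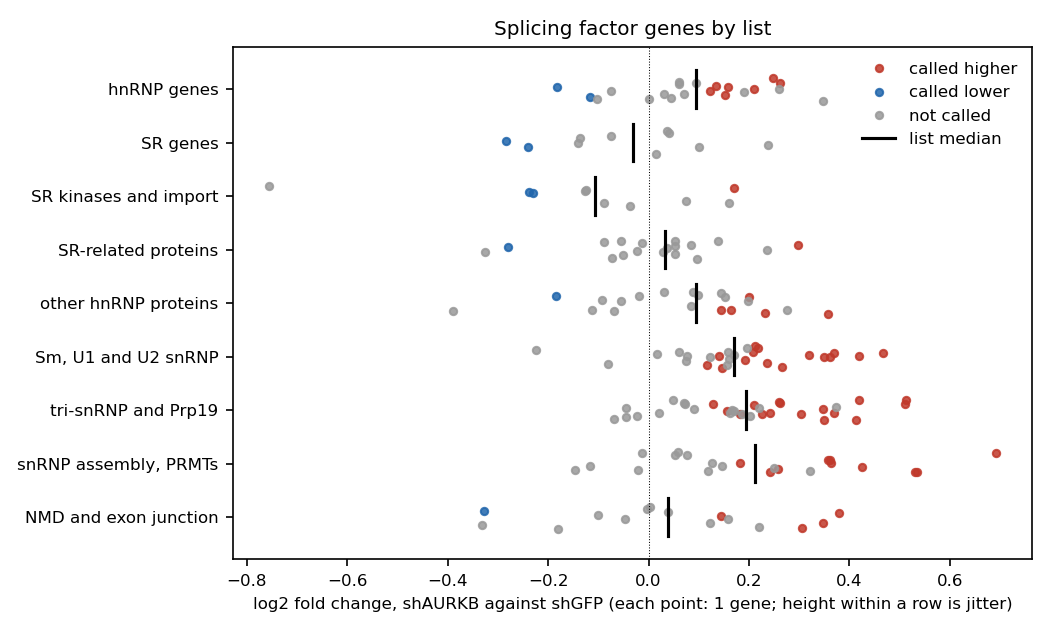
Each point is 1 tested gene, placed by its log2 fold change (horizontal axis) and coloured by its edgeR call, with the hnRNP and SR genes above 7 lists of other splicing genes; the black bar is the list's median. The medians run from -0.11 for the SR kinases and importers to 0.21 for the snRNP assembly factors and methyltransferases.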

How the data were processed

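RNA from 6 CUTLL1 cultures, 3 per arm, was grouped by the sample titles. The authors deposited whole-number counts and FPKM for 50868 Ensembl genes, per the file headers. The submitters' processing notes name HISAT2 2.0.4, StringTie 1.3.0, edgeR and GRCh38 (hg38). What each tool did, the strand setting and the treatment of reads matching several places were not found in the labels or headers, so near-identical and overlapping genes are uncertain. Totals ran from 10154187 to 11922979 counts. Chi-square per degree of freedom between replicates, over genes, was 6.92 to 7.91, so no library repeated another.

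With filterByExpr (a minimum of 10 counts and 15 in total) 14818 genes were kept. After TMM scaling the arms were tested in edgeR 4.0.16 (R 4.3.3) by quasi-likelihood, two-sided, with the arm as the single term and a Benjamini-Hochberg threshold of 0.05. Adjusted p-values are from that test where no other is given. CPM are TMM-scaled, but marker sums use the library total. FPKM were used to compare levels between genes. The floor of 3 counts covers counting error only, and intervals of fold changes rest on the spread between cultures.

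The members, the 7 other splicing lists and the tests were chosen with earlier results of these data known. Named are all members, AURKB, 6 genes tied to hnRNP or SR proteins (PRMT5, SRPK1, CLK1, PTBP1, SYNCRIP, TRA2B) and, per list, the 2 called genes with the largest change. TNPO3, U2AF1, the genes overlapping members, the read-through gene and the copies were added after their values were seen. The test was run on simulated counts with 200 of 14818 genes changed, drawn at random without regard to level. Genes changed 1.25-fold were recovered in 6% of cases, 1.5-fold in 32%, 2-fold in 74% and 4-fold in 94%, while 12% of the genes called had not been changed. The comparison was repeated with RLE or upper-quartile scaling, in DESeq2 1.42.0, in limma-voom (limma 3.58.1), with other filters, with a replicate block, by limma-trend on log2 of the deposited FPKM plus 1 or 0.1, and with each library left out. Sums over each hnRNP gene and its copies were added after seeing the data.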

Additional observations from a re-analysis of the deposited data

How the results depend on the processing

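Of the 31 tested members, 4 were called in the edgeR test and in all alternatives, 7 were called but lost in at least 1, 5 were not called but passed in at least 1, and 15 passed in none. For hnRNP genes, the number called higher (7) was 3 on log2(FPKM + 1) and on log2(FPKM + 0.1), and 2 on log2(FPKM + 1) without a filter. The number called lower (2) was 4 with upper-quartile scaling, 1 with DESeq2, 0 without the low-count filter, and 0 to 1 with 1 library left out. For SR genes, the number called higher (0) was 0 to 1 with 1 library left out. For the other splicing genes, the number called higher (52) was 32 on both FPKM scales, 26 on log2(FPKM + 1) without a filter and 32 to 41 with 1 library left out. Their number called lower (5) was 10 with upper-quartile scaling, 3 without the low-count filter, 8 on both FPKM scales and 0 to 4 with 1 library left out. For all tested genes, the number called higher (1847) was 1264 on log2(FPKM + 1) with the filter and 914 without it, and the number called lower (1609) was 998 to 1056 with 1 library left out. Higher calls made up 53.4% of all calls, but 38.8% with upper-quartile scaling and 42.8% to 44% on FPKM. The causes were not tested.

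The replicate numbers are not said to pair the libraries. Over all tested genes, same-numbered libraries correlated at -0.09, -0.03 and -0.04 in their deviations from the arm means. These correlations cannot show whether the cultures were paired in the experiment. With the replicate block, 5 hnRNP genes were called higher and 1 lower, 2 SR genes lower, 36 and 2 other splicing genes higher and lower, and 1286 and 1027 of all genes.

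Values that turned sign were all uncalled under every setting. With upper-quartile scaling HNRNPA2B1 was at -0.0531, HNRNPUL2 at -0.0087, SRSF1 at -0.017, HNRNPLL at -0.0232, SRSF9 at -0.0394 and SRSF3 at -0.0128. On log2(FPKM + 1), with and without the filter, they were at -0.0537, -0.00577, -0.0148, -0.0197, -0.0363 and -0.0111 in the same order, and on log2(FPKM + 0.1) at -0.0543, -0.00583, -0.015, -0.022, -0.0373 and -0.0115. HNRNPA2B1 was also at -0.000324 with limma-voom, -0.00436 with at least 1 CPM in 3 libraries and -0.00283 with the replicate block. With 1 library left out, HNRNPA2B1 ran from -0.0482 to 0.0765, HNRNPLL from -0.00929 to 0.089, SRSF9 from -0.0149 to 0.0479, SRSF3 from -0.00266 to 0.0802, HNRNPH2 from -0.0597 to 0.153, HNRNPA1L2 from -0.0845 to 0.641 and SRPK1 from -0.0717 to 0.0343. The family sum of HNRNPA1 was at -0.00141. How often changes of the size seen here are recovered at the level of the hnRNP and SR members was not tested. Members that did not pass are not shown to be unaltered.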
